A study of Mus musculus with 14 samples.

Results

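The genes described here encode lysosomal proteins: acid hydrolases, their activators and proteins of the lysosomal membrane. The list named 36 genes, and 35 of them were measured, out of 18194 genes in all. Each was read from 1 probe set, the one with the highest mean log2 intensity over all 14 arrays, among those that the platform annotation assigns to the gene. Cd63 is not named by the annotation used here and was not analysed here. By role, the measured members comprised 9 proteases, 8 hydrolases of sugar chains, 6 enzymes of glycosaminoglycan breakdown, 8 hydrolases of lipids and esters with their activators, and 4 membrane proteins. Their 35 probe sets were among 84 that the annotation assigns to these genes.

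RNA was taken from mouse bone marrow progenitors and cultured cells and measured on Affymetrix Mouse 430 2.0 arrays, with 2 arrays in each of 7 groups. The wild-type mice (WT, Tet2+/+ Mx+) and their Tet2 knockout littermates (KO, spelled Tet-/-Mx+ in the labels) were of B6/129 background and both received pIC, which induces the Mx promoter. Tet2 encodes a dioxygenase whose substrate is the methyl group on cytosine. From each genotype 3 populations were sorted: LSK (lineage-negative, c-Kit+ and Sca1+, which include the blood stem cells), CMP (Sca1-, CD34+, low in Fc gamma receptor) and GMP (Sca1-, CD34+, high in Fc gamma receptor). The sorts of LSK and CMP took place 4 weeks after deletion, the time is not given for GMP, and neither the age of the mice nor any pooling of animals is stated. The remaining KO group grew from CD150+ LSK cells of KO mice and was harvested at plating 5, and replated WT cells were not analysed here. Replated cells therefore differ from sorted cells in culture, and the part of the genotype in that difference cannot be told apart from it. Labelling started from 5 ng of total RNA, which was amplified. Whether the 2 arrays of each group stem from different mice or cultures is not stated, so p-values measure the spread between these samples, which may be technical.

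Replicate arrays correlated at Pearson r between 0.961 (KO LSK) and 0.993 (replated) across all probe sets. Tet2 was read by 2 probe sets. Their position relative to the deleted part is not given in the sources used here, so they check no label. The brighter one lay between 454 and 2045 in WT, between 855 and 2376 in sorted KO, and at 1786 and 1823 in replated cells. The dimmer one lay at 780 and 796 in replated cells and at 209 or below on all sorted arrays, WT included. The cause of that difference was not tested. Hlf, a stem cell transcription factor, lay between 3333 and 4349 in LSK and at 31.6 and 42.1 in replated cells, and the Fc gamma receptor Fcgr3 lay between 3382 and 5002 in GMP and between 634 and 1035 in CMP. Late neutrophil markers, which a lineage-negative sort would remove, summed to between 12297 and 21506 in the sorted arrays. Intensities at or below the floor of an array, its highest reading among 27 probe sets for bacterial transcripts (20.8 to 27.8), are treated as bounds. Of the 35 members, 29 lay above the floor on all 14 arrays. The others were Ctsh, Ctss and Arsb, below it on both replated arrays, Ctsl, below it on 1 replated array, Neu1, below it on 1 array each of KO LSK and WT CMP, and Lgmn, above it on 9 arrays.

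Lysosomes are acidic organelles in which proteins, sugar chains, lipids and nucleic acids are taken apart. Most of their hydrolases are tagged with mannose 6-phosphate in the Golgi and carried to the lysosome by receptors that recognise the tag, while membrane proteins are sorted by signals in their tails. Many of these genes are induced together by the MiT/TFE family of transcription factors (TFEB, TFE3, MITF and TFEC), which bind promoter elements built around CACGTG. In blood cells lysosomes are related to the secretory granules of mast cells and granulocytes and to antigen processing.

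Promoters are shown first because that element is what many of these genes are known to share. RefSeq promoters (build GRCm38.p6, 250 bases before to 50 after the annotated start) matched 32 of the 35 members, and the promoters of Ctsb, Ctsh and Asah1 were not matched. The letters CACGTG, which read the same on both strands, stood in 12 of these 32 members (37.5%) and in 8.09% of the 27025 genes with a promoter in the same table. The longer TCACGTG, which contains CACGTG and was searched on both strands, stood in 11 of 32 members (34.4%) and in 4.29% of all genes. The members holding CACGTG were Arsa, Ctsa, Ctsd, Ctsl, Gaa, Gla, Glb1, Lamp1, Lgmn, Mcoln1, Naglu and Sgsh, and Ctsl was the one without the longer form. Base composition of the promoters was not matched in these shares, and a match is a description of letters. Printed below are the upstream stretches of 6 members, from 10 bases before the first CACGTG where the promoter reaches that far to 10 bases after the last or to the start, with each CACGTG in capitals. They were chosen because Lamp1 holds 4 copies, Ctsd, Gla and Mcoln1 hold 2 upstream copies each, and Glb1 and Sgsh, with 1 copy, were higher in replated cells in every comparison below. The Ctsd stretch is chr7:142387910-142388077 on the minus strand, that of Gla chrX:134601184-134601242 on the minus strand, and that of Lamp1 chr8:13159090-13159160 on the plus strand. Mcoln1 is shown for chr8:3500438-3500489 on the plus strand, Glb1 for chr9:114401020-114401045 on the plus strand, and Sgsh for chr11:119355524-119355549 on the minus strand.
Ctsd: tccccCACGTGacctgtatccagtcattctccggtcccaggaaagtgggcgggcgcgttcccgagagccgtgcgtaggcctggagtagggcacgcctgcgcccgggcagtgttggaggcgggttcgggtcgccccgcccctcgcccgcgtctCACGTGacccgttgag
Gla: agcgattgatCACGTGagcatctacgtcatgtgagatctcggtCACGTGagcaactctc
Lamp1: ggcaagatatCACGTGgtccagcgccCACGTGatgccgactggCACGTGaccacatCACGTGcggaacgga
Mcoln1: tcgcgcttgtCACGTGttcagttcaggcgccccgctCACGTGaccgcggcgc
Glb1: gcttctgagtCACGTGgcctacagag
Sgsh: gcctgccgtgCACGTGaccgtgggga
The 4 copies in Lamp1 lie within 52 bases that end 10 bases before the start. The 2 copies in Gla lie within 39 bases, those in Mcoln1 within 32, and those in Ctsd within 153. Lamp1 and Mcoln1, which hold several copies, passed no test in the comparisons below, whereas Ctsd and Gla did.

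The first question was how lysosomal genes differ along the sorted populations. In WT, 6 of 35 members were higher in GMP than in LSK and 0 were lower, where 3.22% of all 18194 genes were called higher and 7.09% were called in either direction (limma, Benjamini-Hochberg adjusted p below 0.05). In KO, 5 members were higher and 0 lower, against 3.42% of all genes called higher and 7.18% in either direction. Gla, Gusb and Arsb were called in both genotypes, which is 3 of the 6 in WT and 3 of the 5 in KO. The share of all genes called in both is not given here, so this overlap has no background. Ctsb, Ctsz and Hexa passed in WT alone, and Ctsa and Arsa in KO alone. The median log2 difference of the members was 0.45 in WT and 0.32 in KO, and that of all genes was 0.07 in each. Without WT LSK replicate 1 the median of the members in WT was 0.18.

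Gla encodes alpha-galactosidase A, which removes galactose from glycolipids. Its intensity was 77.0 and 139 in WT LSK, 444 and 228 in WT CMP, and 809.6 and 914 in WT GMP. In KO it was 108 and 131 in LSK, 279 and 164 in CMP, and 695 and 810.1 in GMP. The arrays of the 3 populations did not overlap in either genotype and stood in the order LSK, CMP, GMP. From LSK to GMP it rose by 3.06 ± 0.37 log2 units in WT (SE, limma adjusted p = 0.0016) and by 2.65 ± 0.37 in KO (adjusted p = 0.00401), an 8.33-fold and a 6.3-fold difference.

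Arsb, the sulfatase that acts on dermatan and chondroitin sulfate, stood at 676 and 436 in WT LSK, 606 and 561 in WT CMP, and 1295 and 1257 in WT GMP. In KO it stood at 392 and 397 in LSK, 393 and 295 in CMP, and 1253 and 1139.6 in GMP. LSK and CMP overlapped in both genotypes, and GMP lay above both. The rise from LSK to GMP was 1.23 ± 0.28 in WT (adjusted p = 0.0288) and 1.60 ± 0.28 in KO (adjusted p = 0.00979). A dimmer Arsb probe set also rose, from a level of 37.7 to 284 in WT and from 96.2 to 247 in KO. Another fell, from 71.3 to 43.5 in WT and from 116 to 41.0 in KO. With the mean of all its probe sets the Arsb call in KO was lost (limma adjusted p = 0.301). Gusb, the beta-glucuronidase of the same degradation pathway, was at 966 and 1395 in WT LSK and at 1993 and 2200.5 in WT GMP, and at 933 and 923 against 1934 and 2048 in KO. It rose by 0.85 ± 0.22 in WT (adjusted p = 0.0481) and by 1.10 ± 0.22 in KO (adjusted p = 0.017), with no overlap between GMP and LSK arrays. The other Gusb probe set went from a level of 305 to 485 in WT and from 252 to 541 in KO. With the mean of all its probe sets the Gusb call was lost in both genotypes.

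Among the members called in WT, Ctsz, a carboxypeptidase of the cathepsin family, was at 617 and 1667 in LSK, 2426 and 2087 in CMP, and 3165 and 4030.4 in GMP, a rise of 1.82 ± 0.39 from LSK to GMP (adjusted p = 0.0242). Hexa, the alpha subunit of beta-hexosaminidase, which degrades the ganglioside GM2, was at 872 and 1196 in WT LSK and at 3209 and 3240.5 in WT GMP (1.66 ± 0.36, adjusted p = 0.0252). Ctsb, a cysteine cathepsin, went from 1436 and 1676 to 2492 and 2645 (0.73 ± 0.15, adjusted p = 0.0219). In WT a dimmer Ctsb probe set rose from a level of 568 to 1150 and another fell from 238 to 142. With the mean of all its probe sets the Ctsb call was lost. The KO differences of these 3 were in the same direction at 1.40 ± 0.39 for Ctsz, 1.12 ± 0.36 for Hexa and 0.56 ± 0.15 for Ctsb, with adjusted p = 0.0695, 0.109 and 0.0644. In KO, Ctsa, the carboxypeptidase that also protects beta-galactosidase and neuraminidase, was at 392 and 448 in LSK and at 1083 and 649.6 in GMP, a 2.0-fold difference (SE 0.25 in log2 units, adjusted p = 0.0431). With the mean of its probe sets that call was lost. Arsa, the sulfatase that acts on sulfatide, was at 141 and 140.2 in KO LSK and at 208 and 304 in KO GMP (0.84 ± 0.19, adjusted p = 0.0322). No member was called as differing between the genotypes in this step. For the KO minus WT difference in GMP against that in LSK, 0 of 35 passed in limma and 0 had an unadjusted p below 0.05, where 0.0055% of all genes were called.

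The single steps gave fewer calls. Throughout, shares of all genes called use the adjusted threshold, so they are no background for counts at an unadjusted p. From LSK to CMP 0 of 35 members passed in WT, with 6 at an unadjusted p below 0.05 (1.53% of all genes called), and 0 of 35 in KO, with 5 at that p (1.15% called). The members with the smallest p were Gla at 1.62 ± 0.37 (adjusted p = 0.0788) and Idua, the iduronidase of glycosaminoglycan breakdown, at -1.99 ± 0.59 (adjusted p = 0.178) in WT, and Ctsl at -1.17 ± 0.25 (adjusted p = 0.0638) and Gusb at 0.65 ± 0.22 (adjusted p = 0.219) in KO. The Idua value rests on WT LSK arrays at 561 and 143, against 78.5 and 65.0 in WT CMP. From CMP to GMP 0 of 35 passed in WT, with 6 at an unadjusted p below 0.05 (0.89% of all genes called). Neu1, the lysosomal neuraminidase, had the smallest p there, with 63.8 and 23.2 in WT CMP and 193 and 189 in WT GMP (2.31 ± 0.55, adjusted p = 0.128), followed by Arsb at 1.13 ± 0.28 (adjusted p = 0.148). In KO, 1 of 35 passed, where 0.363% of all genes were called higher and 0.769% in either direction: Arsb rose by 1.81 ± 0.28 (adjusted p = 0.023), a 3.51-fold difference. The KO minus WT difference was called for 0 of 35 members in CMP against LSK (2 at an unadjusted p below 0.05, 0.022% of all genes called) and for 0 of 35 in GMP against CMP (1 at that p, 0% of all genes called).

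By role, all 8 sugar hydrolases had a positive GMP minus LSK difference in both genotypes, and 2 of them passed in WT and 1 in KO. Their median was 0.91 in WT and 0.98 in KO, beside 0.07 over all genes in each. Some of these differences were small, as in KO for Fuca1, from a level of 1231 to 1307, and Glb1, from 542 to 592. Proteases split, with 5 of 9 positive in each genotype. Ctsl, a cysteine cathepsin, was at 727 and 716 in WT LSK and at 430.5 and 412 in WT GMP, and Ctss, the cathepsin that trims the invariant chain in antigen-presenting cells, at 1156 and 2137 against 871 and 1053; neither passed. None of the 4 membrane proteins passed in either genotype.

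Other markers moved along the same steps. Summed CMP and GMP markers lay between 20280 and 23259 in LSK and between 48966 and 51493 in GMP, with all 8 genes above the floor. Summed monocyte and macrophage markers lay between 734 and 2422 in LSK and between 3996 and 7382 in GMP, where 7 of 10 were above the floor on both WT and 9 of 10 on both KO arrays. Mast cell and basophil markers summed to between 515 and 768 in LSK and to between 3974 and 4949 in GMP, with Mcpt4 and Tpsab1 below the floor in both. Their part in the lysosomal differences was not tested. In such bulk samples fewer cells of a type and less RNA per cell cannot be told apart. Within KO LSK the arrays differed, and members did not differ in 1 direction. Hexa was at 2374 and 902 and Lgmn, the asparaginyl endopeptidase, at 229.7 and 21.3. Galc, at 82.1 and 245, Sgsh, at 63.9 and 183, and Lipa, at 346 and 768, went the other way. On the same arrays Csf1r was at 1010.2 and 190.2 and C1qa at 153 and 42.9. With single arrays left out, Gla passed from LSK to GMP in both genotypes each time, and the other calls each ended without at least 1 array. Of 14 arrays left out in turn, 11 ended the Gusb call in WT, 11 the Ctsa call in KO and 7 the Arsa call in KO. For these calls that included arrays of groups that were not compared. In WT only Gla passed without WT GMP replicate 1 or 2, 3 members passed without WT LSK replicate 1, and 0 passed in a fit of the compared arrays alone. In KO 2 members passed without KO GMP replicate 1 or 2 and in a fit of the compared arrays alone, and 3 without KO LSK replicate 2, WT CMP replicate 1 or 2, or replated replicate 1 or 2. The Arsb rise from CMP to GMP in KO ended without KO CMP replicate 2 or KO GMP replicate 1 or 2.

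**Figure D1:**
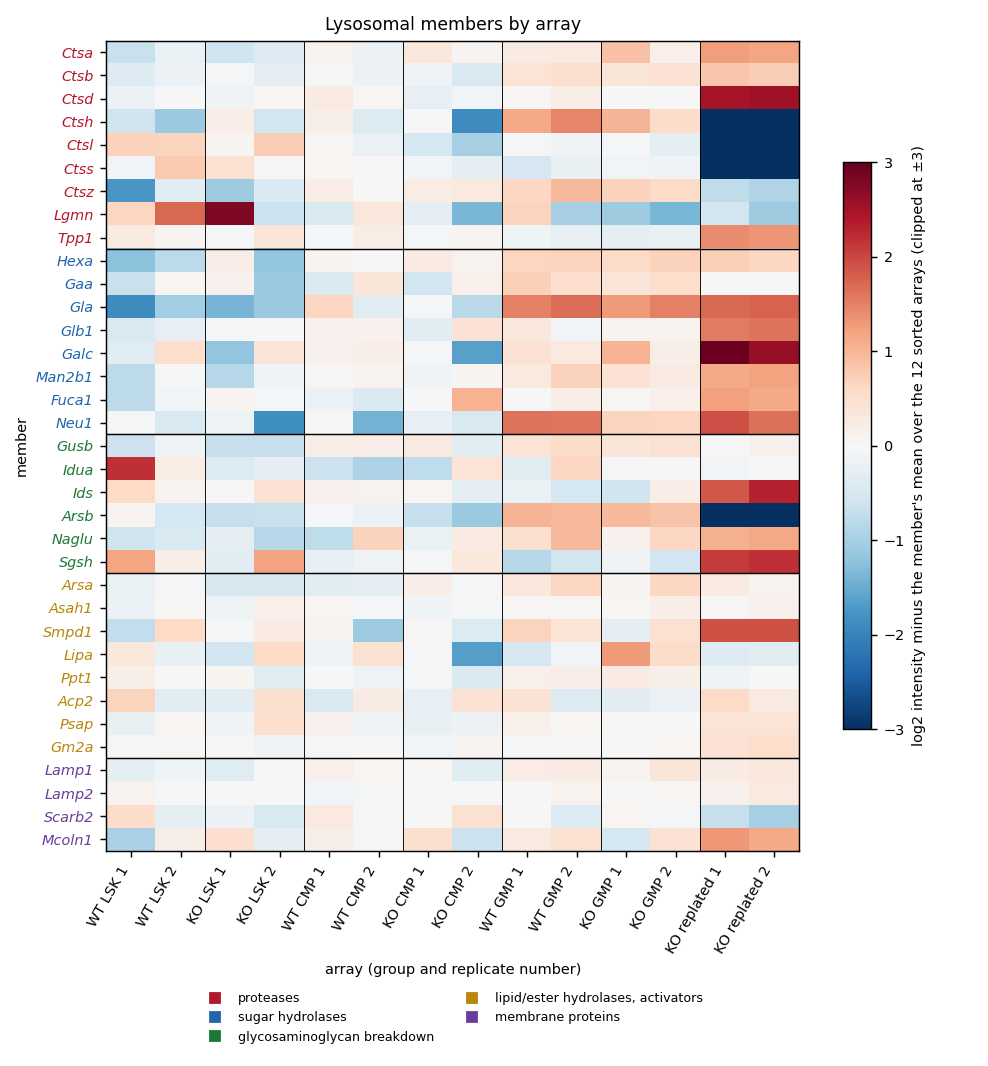
Each row is a member and each column an array; colour gives the log2 intensity minus the mean of that member over the 12 sorted arrays, clipped at 3 in either direction, with rows grouped and coloured by role. Gla and Neu1 are low in LSK and higher in GMP, and the replated arrays are high for Ctsd, Galc and Ids and low for Ctsh, Ctsl, Ctss and Arsb.

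**Figure D2:**
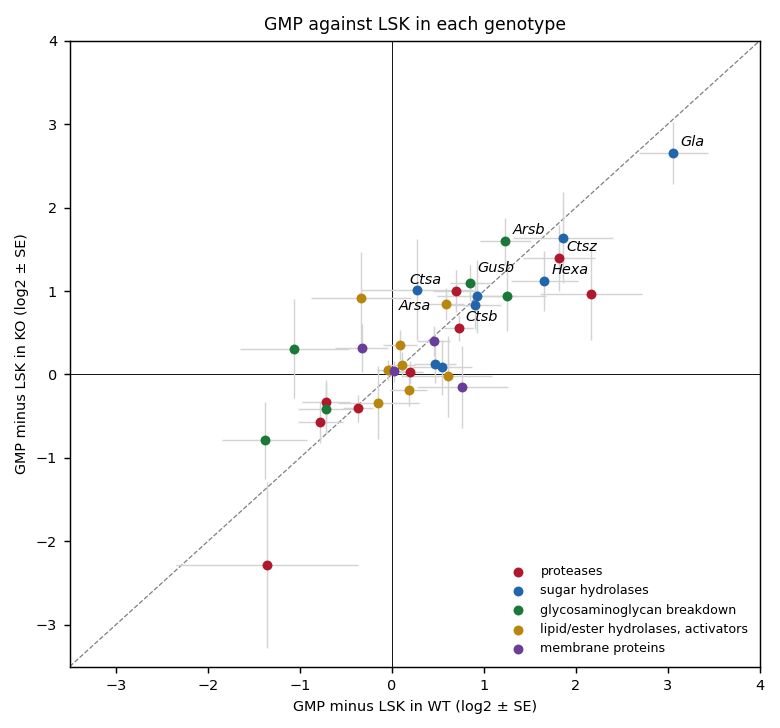
Each point is a member, with its GMP minus LSK log2 difference in WT on the horizontal and in KO on the vertical axis; bars are SE, the dashed line marks equal differences, and members past the threshold in either genotype are named. Of the 35 members, 21 lie above 0 in both genotypes and 7 below 0 in both, beside 68.7% of all genes with the same sign in both, and Gla is farthest along the diagonal.

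The next question was how replated KO cells differ from the sorted KO populations. Against KO LSK, 18 of 35 members were higher and 4 lower, where 10.8% of all genes were called higher, 14.2% lower and 25.1% in either direction. Against KO CMP 13 were higher and 5 lower (all genes 10.3% higher, 14.1% lower, 24.4% in all), and against KO GMP 9 were higher and 5 lower (all genes 10.2% higher, 15.2% lower, 25.3% in all). In each comparison the falls among members were near the share of all genes called lower. The median log2 difference of the members was 0.66, 0.48 and 0.40 against LSK, CMP and GMP, beside 0.01, -0.07 and -0.06 over all genes. These 3 comparisons share the replated arrays, so they are not separate observations of them. Called higher in each were 8 members (Ctsd, Tpp1, Glb1, Galc, Ids, Sgsh, Smpd1 and Gm2a), and called lower in each were 4 (Ctsh, Ctsl, Ctss and Arsb). The share of all genes called the same way in all 3 is not given here, so these counts have no background. A further 6 were higher against 2 populations (Ctsa, Ctsb, Gla, Man2b1, Fuca1 and Neu1), 4 against LSK only (Hexa, Gusb, Naglu and Arsa), Ctsz was lower against GMP and Scarb2 against CMP, and 11 were called in none.

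The proteases moved in both directions. Ctsd, an aspartic protease, was at 900.3 and 1023 in KO LSK, 828 and 914 in KO CMP, 985 and 968 in KO GMP, and 5438 and 5637 in replated cells. The sorted arrays, WT included, lay between 828 and 1161, far below both replated arrays. The differences were 2.53 ± 0.14 against LSK (SE, limma adjusted p = 1.09e-06), 2.67 ± 0.14 against CMP (adjusted p = 7.58e-07) and 2.50 ± 0.14 against GMP (adjusted p = 1.2e-06), or 5.77-, 6.37- and 5.67-fold. Tpp1, which removes tripeptides from the ends of proteins, was at 3480.1 and 3256 in replated cells and between 1069 and 1655 in sorted arrays. It rose by 1.22 ± 0.16, 1.36 ± 0.16 and 1.62 ± 0.16 against LSK, CMP and GMP (adjusted p = 0.000523, 0.000256 and 8.07e-05).

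Ctss went from 1681 and 1271 in KO LSK, 1165 and 999 in KO CMP and 1171 and 1150.3 in KO GMP to 19.7 and 20.3 in replated cells, both at or below the floor. It was at least 67.3-fold lower than in LSK (adjusted p = 2.04e-07), 49.6-fold than in CMP (adjusted p = 3.42e-07) and 53.4-fold than in GMP (adjusted p = 3.05e-07). Ctsh, an aminopeptidase of the cathepsin family, was at 383 and 225 in KO LSK, 328 and 90.4 in KO CMP and 678 and 487 in KO GMP, and at 11.4 and 6.85 in replated cells, below the floor. The bounds were at least 13.5-fold, 7.92-fold and 26.4-fold lower (adjusted p = 0.000145, 0.000425 and 4.51e-05). Ctsl was at 469 and 743 in KO LSK, 308 and 224 in KO CMP and 436 and 362 in KO GMP, and at 22.1 and 17.2 in replated cells, of which 1 array lay above its floor. Its differences were -4.92 ± 0.25, -3.75 ± 0.25 and -4.35 ± 0.25 (adjusted p = 6.31e-07, 4.42e-06 and 1.48e-06). Sorted and replated arrays did not overlap for these 3 cysteine cathepsins.

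Ctsb and Ctsz, also cysteine cathepsins, gave other values. Ctsb rose by 0.95 ± 0.15 against LSK (adjusted p = 0.00151) and by 1.07 ± 0.15 against CMP (adjusted p = 0.000754), with 3376 and 3158 in replated cells. Ctsz was at 1226 and 1114 in replated cells, against 991 and 1502 in KO LSK, 2398 and 2515 in KO CMP and 3363 and 3067 in KO GMP. Against GMP it was lower, at -1.46 ± 0.39 (adjusted p = 0.0222), and against LSK the difference was -0.06 with a 95% interval from -0.95 to 0.82. Against CMP the difference was -1.07 and did not pass. The dimmer Ctsz probe sets were lower than in CMP, at -1.04 ± 0.24 and -1.03 ± 0.25. Their adjusted p was 0.0151 and 0.0195 when every probe set was fitted with limma. The serine carboxypeptidase Ctsa rose against LSK by 1.71 ± 0.25 and against CMP by 1.02 ± 0.25 (adjusted p = 0.000842 and 0.0145). With the mean of its probe sets both calls were lost (limma adjusted p = 0.164 against LSK and 0.429 against CMP). Lgmn lay above the floor on 9 of 14 arrays, and its levels could not be ordered.

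Sugar hydrolases accounted for 7 of the 18 rises against LSK, and 7 of the 8 members of that role passed there, 5 against CMP and 3 against GMP, all upwards. Galc, which removes galactose from galactosylceramide, was at 82.1 and 245 in KO LSK, 180.2 and 60.1 in KO CMP, 387 and 213 in KO GMP, and 1430.3 and 1144 in replated cells. Replicates within sorted groups lay far apart, yet all 12 sorted arrays lay at 387 or below. Its differences were 3.17 ± 0.61, 3.62 ± 0.61 and 2.16 ± 0.61 (adjusted p = 0.00414, 0.00201 and 0.0282). Gla was at 944 and 972 in replated cells, which is 3.01 ± 0.37 above KO LSK (adjusted p = 0.000322) and 2.16 ± 0.37 above KO CMP (adjusted p = 0.00235). Against KO GMP its difference was 0.35, with a 95% interval from -0.49 to 1.20 and adjusted p = 0.599. Neu1 was at 236 and 196 in replated cells, 56.4 and 17.4 in KO LSK, 52.3 and 45.6 in KO CMP, and 98.7 and 96.5 in KO GMP. It rose against LSK (2.78 ± 0.55, adjusted p = 0.00476) and CMP (2.14 ± 0.55, adjusted p = 0.0187), and the difference from GMP was 1.14 ± 0.55 (adjusted p = 0.183). Glb1, the beta-galactosidase, lay between 399.7 and 739 in sorted arrays and at 1616 and 1706 in replated cells, and its differences of 1.61, 1.55 and 1.49 (SE 0.23 each) all passed. Gaa, the acid alpha-glucosidase that degrades glycogen, passed in none, with 488 and 496 in replated cells inside the sorted range of 231 to 823.

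Among the 6 enzymes of glycosaminoglycan breakdown, Arsb was lower in every comparison. It was at 8.49 and 4.92 in replated cells, below the floor, after 392 and 397 in KO LSK, 393 and 295 in KO CMP and 1253 and 1139.6 in KO GMP. It was at least 18.2-fold lower than in LSK (adjusted p = 3.96e-07), 15.7-fold than in CMP (adjusted p = 5.22e-07) and 55.0-fold than in GMP (adjusted p = 8.19e-08). Ids, the iduronate sulfatase, was at 897 and 1229 in KO LSK, 945 and 736 in KO CMP, 600.2 and 1036 in KO GMP, and 3293 and 4483 in replated cells. It rose by 1.87 ± 0.31 against LSK and 2.28 ± 0.31 against GMP (adjusted p = 0.00165 and 0.00048), and was 4.61-fold higher than in CMP (adjusted p = 0.000632). Sgsh, the heparan N-sulfatase, was at 63.9 and 183 in KO LSK, 76.2 and 98.2 in KO CMP, 73.3 and 53.6 in KO GMP, and 340.2 and 360.0 in replated cells. Its rises were 1.69 ± 0.46, 2.02 ± 0.46 and 2.48 ± 0.46 (adjusted p = 0.0247, 0.0109 and 0.00333). Naglu, which acts on heparan sulfate as Sgsh does, rose against LSK by 1.68 ± 0.42 (adjusted p = 0.017), and Gusb by 0.76 ± 0.22 (adjusted p = 0.0294). Idua was at 116 and 125 in replated cells and between 72.6 and 163 in the sorted KO arrays, and did not pass.

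Of the hydrolases of lipids and esters and their activators, Smpd1, the acid sphingomyelinase, was at 228 and 277 in KO LSK, 239 and 176 in KO CMP, 190.0 and 322 in KO GMP, and 881 and 876 in replated cells. It rose by 1.80 ± 0.48, 2.10 ± 0.48 and 1.83 ± 0.48 (adjusted p = 0.0224, 0.011 and 0.0204). Gm2a, the activator that lifts GM2 ganglioside for beta-hexosaminidase, was at 9947 and 10618 in replated cells and between 6866 and 7766 in every sorted array. Its rises of 0.51, 0.48 and 0.46 (SE 0.12 each) were the smallest that passed in all 3 comparisons. Arsa rose against LSK by 0.66 ± 0.19 (adjusted p = 0.0331). Asah1, the acid ceramidase, lay between 3228 and 4186 over all 14 arrays, and its difference from LSK had a 95% interval from -0.25 to 0.41. Lipa, the acid lipase, Ppt1, the palmitoyl-protein thioesterase, Acp2, the lysosomal acid phosphatase, and Psap, the precursor of the saposins, did not pass, with differences between -1.28 (Lipa against GMP) and 0.66 (Acp2 against GMP).

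Of the 4 membrane proteins, 1 passed in 1 comparison. Lamp1 and Lamp2, the abundant glycoproteins that line the lysosomal membrane, were at 5574 and 5939.8 and at 5431 and 6133 in replated cells, and their differences from LSK were 0.46 (95% interval 0.05 to 0.87, adjusted p = 0.101) and 0.22 (-0.05 to 0.50, adjusted p = 0.239). Scarb2, which carries glucocerebrosidase to the lysosome, was at 1136 and 920.3 in replated cells, 1612 and 1326 in KO LSK, 1833 and 2511 in KO CMP, and 1896 and 1750.3 in KO GMP. Against CMP it was lower, at -1.07 ± 0.29 (adjusted p = 0.0233). Against LSK and GMP the differences were -0.52 and -0.83 (adjusted p = 0.249 and 0.0637). Mcoln1, a calcium channel of the lysosomal membrane, was at 304 and 275 in replated cells, above all 12 sorted arrays (63.4 to 176), with differences of 1.12, 1.30 and 1.27 (SE 0.49 each) and adjusted p = 0.143, 0.0919 and 0.0981.

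**Figure D3:**
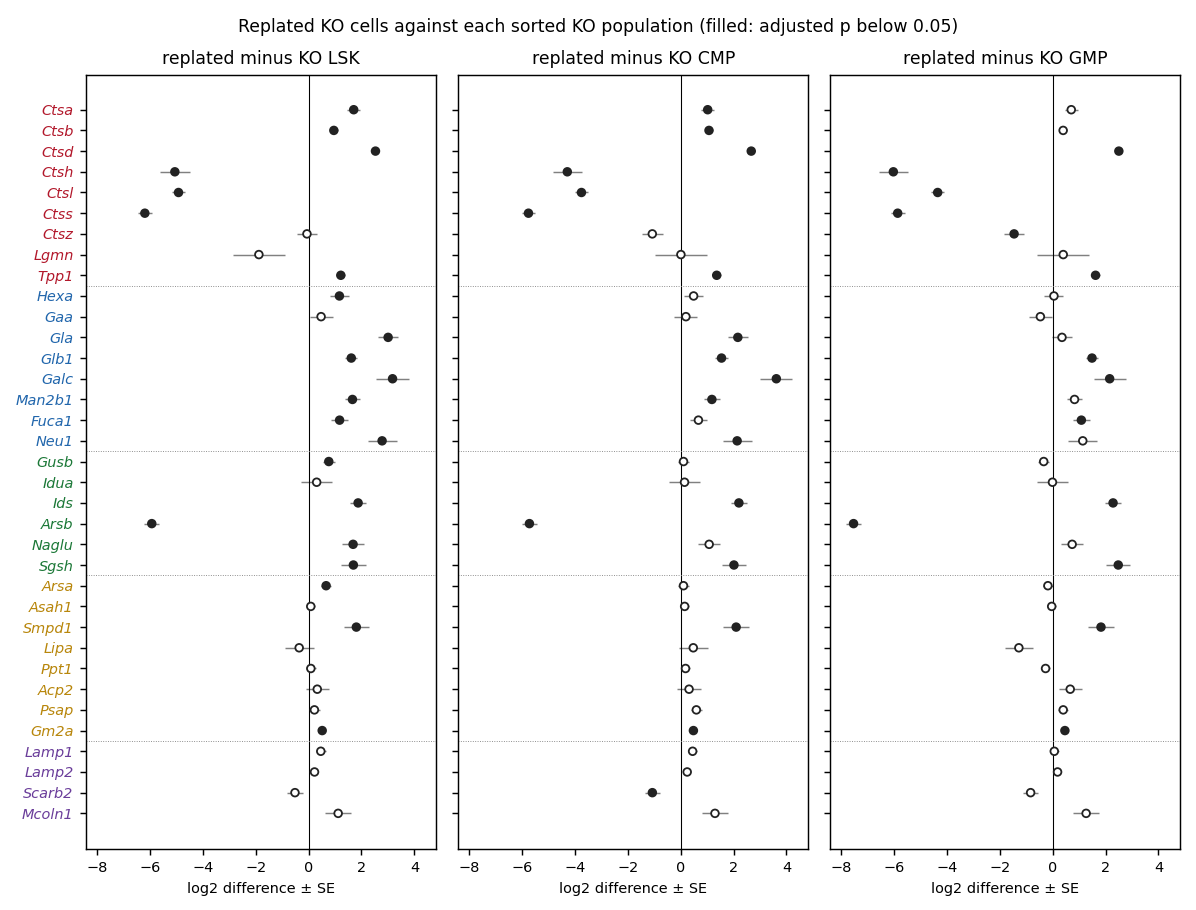
Log2 differences of replated KO cells from KO LSK, KO CMP and KO GMP (3 panels, points with SE bars, members coloured by role; filled points passed the threshold). Ctsh, Ctsl, Ctss and Arsb lie at -3.75 or below in all panels, and Ctsd, Galc, Ids and Sgsh lie at 1.69 or above.

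**Figure D4:**
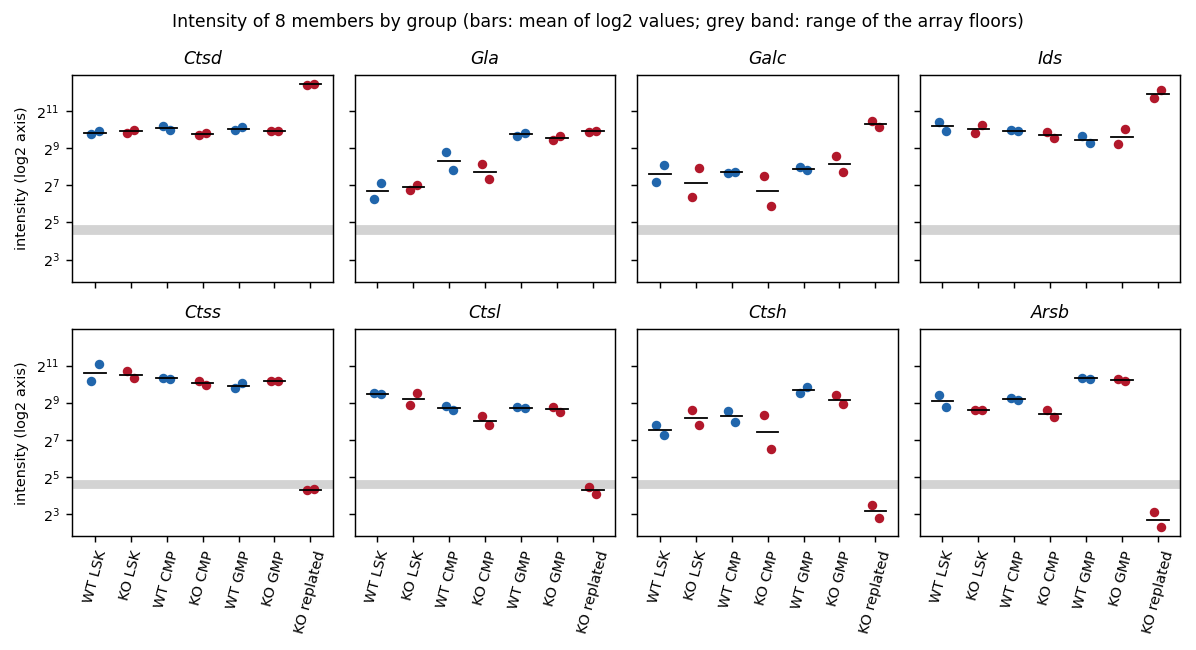
Intensity of 8 members on every array, on a log2 axis, with WT in blue and KO in red; bars are means of log2 values and the grey band is the range of the array floors, 20.8 to 27.8. Ctsd, Galc and Ids are higher on both replated arrays than on all sorted arrays, Gla reaches the level of GMP, and on the replated arrays Ctss, Ctsl, Ctsh and Arsb lie in or below the band.

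Markers of other cell types moved with every replated difference. All 9 mast cell and basophil markers measured were above the floor on both replated arrays, with sums of 63095 and 65086 against 515 to 4949 in sorted arrays. Of the 9, all were called higher than in KO LSK, and 7 than in KO CMP and KO GMP. Mcpt8 was lower than in KO GMP, with 496 and 485 against 857 and 1022 (-0.93 ± 0.25, adjusted p = 0.0212), and Hdc was at 967 and 855 against 1438 and 1549, which did not pass. Cma1, a chymase, was at 15287 and 15568 there and at 64.3 or below in sorted arrays. Monocyte and macrophage markers summed to 1598 and 1845 in replated cells, within the sorted range of 734 to 7382. Of the 10, 5, 3 and 7 were called lower than in KO LSK, CMP and GMP, and Cx3cr1 alone was called higher in each, at 277 and 304 against 31.6 to 141 in sorted arrays. Csf1r and Cd14 were at 8.75 and 6.14 and at 11.3 and 12.3, below the floor, and Ccr2 made up most of the sum. Late neutrophil markers summed to 149 and 133, and the granule enzymes Mpo, Elane, Prtn3 and Ctsg lay at 19.9 or below. The part of these shifts in the lysosomal differences was not tested. Xist, which marks the silenced X chromosome of female cells, was at 18.4 and 21.9 in replated cells and between 4980.2 and 6634 in sorted KO arrays, and the Y-linked Eif2s3y was at 2056 and 2083 against 6.47 to 12.5, with Kdm5d at 503 and 821 against 5.25 to 14.9. Replated and sorted KO cells thus differed in the expression that marks sex in every replated comparison, for all members and not the X-linked Gla, Ids and Lamp2 alone, and its part cannot be told apart from that of culture.

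Removing single arrays moved these counts without turning a direction among the named values. Without replated replicate 1 the calls numbered 15, 12 and 9 against LSK, CMP and GMP, and without replated replicate 2 they numbered 14, 11 and 9. Every call of Ctsd, Tpp1, Glb1, Ids, Ctsh, Ctsl, Ctss and Arsb held without each of the 14 arrays. So did those of Ctsb. Of 14 arrays left out in turn, 11 ended the call of Hexa against LSK, 8 that of Fuca1 against GMP and 6 that of Arsa against LSK. Removing any of 4 arrays ended those of Fuca1, Gusb and Smpd1 against LSK, Neu1 against CMP, and Ctsz and Gm2a against GMP. Removing any of 3 ended those of Naglu and Sgsh against LSK, of Ctsa, Man2b1, Sgsh, Smpd1 and Scarb2 against CMP, and of Galc and Smpd1 against GMP. Gm2a was lost without 2 of the arrays against LSK and against CMP.

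Several members have further probe sets that read differently. For Lamp2, 2 other probe sets were higher in replated cells than in KO LSK and CMP, and for Ppt1 1 other probe set was higher than in all 3 populations, while the brightest probe set of each passed in none. Scarb2 fell at its brightest probe set, from a level of 2145 in KO CMP to 1022, and at the other was at 134 and 274, a difference of 1.03 ± 0.57 (adjusted p = 0.298 when every probe set was fitted with limma). For Ids, a dimmer probe set gave a wider difference, 5.83 ± 0.63 against LSK (adjusted p = 0.000203), from 12.3 and 32.5 to 1061 and 1224. Arsb, Ctsh and Ctsl each had 1 or 2 other probe sets, all below the floor on both replated arrays. For Lipa, an other probe set was lower than in KO GMP (-1.04 ± 0.29, adjusted p = 0.0347 in the limma fit of every probe set). Another was lower than in KO LSK (-1.12 ± 0.33, adjusted p = 0.0472). For Psap, the other probe set was higher than in KO CMP (0.59 ± 0.17, adjusted p = 0.0412). The brightest probe sets of Lipa and Psap passed in none. Where the probe sets lie in the transcripts was not analysed here.

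Other genes of the lysosome were counted from lists with the same test. Of 16 measured subunits and accessory proteins of the proton pump that acidifies lysosomes, 10 were higher and 0 lower against KO LSK, 8 and 0 against KO CMP, and 4 and 1 against KO GMP, beside the shares of all genes given above (10.2% to 10.8% higher and 14.1% to 15.2% lower). Atp6v0d2 also passed but lay below the floor in both groups and is not counted. Atp6v0a2 (1.67 ± 0.17, 1.39 ± 0.17 and 1.16 ± 0.17) and Atp6v0d1 (1.51 ± 0.19, 1.29 ± 0.19 and 1.24 ± 0.19) rose in each, and Atp6v1b2 fell by 0.98 on the log2 scale against GMP (adjusted p = 0.00322). Of 17 other lysosomal membrane proteins, 7, 8 and 7 were higher and 1, 2 and 3 lower against LSK, CMP and GMP. Npc1, the cholesterol exporter of lysosomes, was at 577 and 550.3 in replated cells and between 138 and 280.0 in sorted arrays, and Laptm4b was at 69.6 and 41.9 against 748 to 2739.

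Of 18 other lysosomal hydrolases, 4, 4 and 3 were higher and 2, 3 and 3 lower, so the falls were near the share of all genes called lower. Ctsc, the dipeptidyl peptidase that activates granule proteases, was at 4222 and 5142 in replated cells and between 882 and 1859 in sorted arrays (1.52 ± 0.22 against LSK, adjusted p = 0.000783). Scpep1, a serine carboxypeptidase, was at 21.4 and 23.4 against 239.6 to 493 (-4.17 ± 0.27 against LSK, adjusted p = 4.25e-06). Ctsw, another cathepsin, was at 7.28 and 12.2, below the floor, against 371 and 238 in KO LSK (adjusted p = 0.000121). Galns, a sulfatase of glycosaminoglycan breakdown, was lower than in KO CMP (-0.91 ± 0.25, adjusted p = 0.0261) and KO GMP (-1.96 ± 0.25, adjusted p = 0.000367). Among 11 genes of enzyme sorting and activation, 3, 1 and 1 were higher and 2, 1 and 2 lower. Of all genes 10.2% to 10.8% were called higher and 14.1% to 15.2% lower, so the counts against CMP and GMP were near these shares. Gnptab, which makes the mannose 6-phosphate tag, was at 2388 and 2686 in replated cells and rose by 1.14 ± 0.31, 1.03 ± 0.31 and 1.05 ± 0.31, whereas Igf2r, a receptor for the tag, was at 28.2 and 29.7 and fell by 3.86 on the log2 scale against LSK (adjusted p = 0.000925). The inhibitor Cstb, which binds cysteine cathepsins, rose by 1.06 ± 0.15, 0.98 ± 0.15 and 0.67 ± 0.15.

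Of the 4 MiT/TFE factors, Mitf was at 7097 and 7323 in replated cells and between 468 and 1305 in sorted arrays (2.50 ± 0.36 against LSK, adjusted p = 0.000783), and Tfe3 rose by 0.56 ± 0.16 (adjusted p = 0.0273). Tfec was at 6.56 and 7.47, below the floor, after 1079 and 1030.0 in KO LSK, and Tfeb lay between 25.6 and 76.6 on all arrays. Of the members with a matched promoter, TCACGTG stood in 7 of the 17 that were called higher in at least 1 replated comparison and in 4 of the other 15.

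The last comparison was between KO and WT in each sorted population. Averaged over LSK, CMP and GMP, 0 of 35 members passed in limma, where 0.308% of all genes were called at the adjusted threshold. Of the members, 2 had an unadjusted p below 0.05, for which no share of all genes is given here. The median KO minus WT difference of the members was -0.05, beside 0.03 for all genes. For 31 of 35 members the 95% interval lay within a 2-fold difference in either direction, and for 35 within a 4-fold one. The smallest p belonged to Arsb (-0.44 ± 0.16, adjusted p = 0.436) and Ctsl (-0.36 ± 0.14, adjusted p = 0.498).

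Within single populations 0 of 35 passed as well. The shares of all genes called again use the adjusted threshold and are no background for counts at an unadjusted p. In LSK 1 member had an unadjusted p below 0.05 (0.264% of all genes called): Idua had 561 and 143 in WT beside 92.5 and 103 in KO (-1.54 ± 0.59, adjusted p = 0.421), and Arsa followed at -0.36 ± 0.19 (adjusted p = 0.59). Without KO LSK replicate 2, 1 member passed there. In CMP 4 had an unadjusted p below 0.05 (0.121% of all genes called). The first of these were Ctsl, with 459.7 and 392 in WT beside 308 and 224 in KO (-0.69 ± 0.25, adjusted p = 0.704), and Arsb, with 606 and 561 in WT beside 393 and 295 in KO (-0.78 ± 0.28, adjusted p = 0.708). In GMP 0 had such a p (0.0934% of all genes called), and the smallest were those of Lipa, with 362 and 489.8 in WT beside 1255 and 759.6 in KO (1.21 ± 0.54), and Neu1, with 193 and 189 in WT beside 98.7 and 96.5 in KO (-0.97 ± 0.55). Their dimmer probe sets did not read the same. For Lipa these had levels of 491 in WT beside 491 in KO, and of 456 beside 469. For Neu1 they had 46.0 in WT beside 48.8 in KO, and 28.4 beside 36.6. With 2 arrays a group, only 17, 18 and 21 members had intervals within a 2-fold difference in LSK, CMP and GMP.

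Genotype went together with sex-linked expression, since Xist lay between 18.7 and 29.7 in WT and between 4980.2 and 6634 in sorted KO arrays, and Eif2s3y between 772 and 1203 in WT and between 6.47 and 12.5 in sorted KO. Genotype and sex-linked expression cannot be told apart for any member. The X-linked members differed little on average: Gla by -0.19 (95% interval -0.68 to 0.30), Ids by -0.08 (-0.47 to 0.32) and Lamp2 by -0.00 (-0.16 to 0.16). Ctss, which lies on chromosome 3 as Tet2 does, differed by -0.02 (-0.36 to 0.32).

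**Figure D5:**
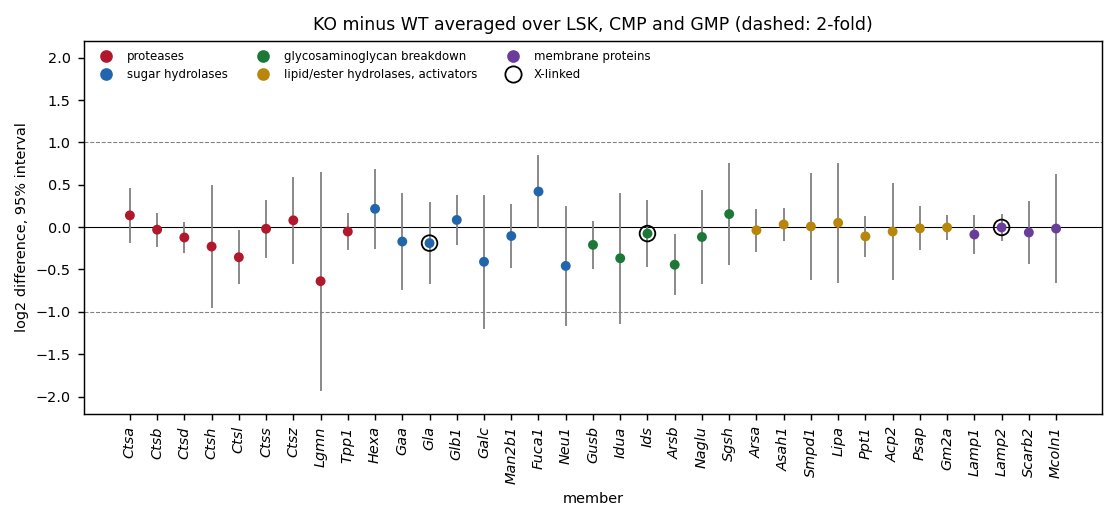
KO minus WT log2 difference of each member, averaged over LSK, CMP and GMP, with its 95% interval; colours mark roles, rings mark X-linked members and dashed lines mark a 2-fold difference. The points scatter around 0, from -0.64 for Lgmn, which has the widest interval, to 0.42 for Fuca1.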

How the data were processed

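The authors deposited linear intensities per probe set, for which the submitters' processing notes name RMA; its version is not given in the sources used here. Of 45101 probe sets, 34958 were assigned to 1 gene, 932 to several (not used) and 9211 are not listed in the annotation used here. From the authors' intensity values log2 was taken, and each of 18194 genes was read from its brightest probe set. Cd63 is not named by that annotation. The intensity floor of an array was its highest reading among 27 bacterial control probe sets; where the dimmer group lay at or below it on both arrays, a bound is given, the mean of the brighter group over the floor.

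A model with 7 group means over 14 arrays was fitted with limma 3.58.1 (R 4.3.3) lmFit and eBayes, with 7 residual degrees of freedom. Tests were two-sided, p-values were Benjamini-Hochberg adjusted over all genes with a threshold of 0.05, and errors are moderated standard errors. Summaries used Python 3.11.15 and pandas 2.3.3. The procedure was tested on simulated data. The number of arrays limits the precision.

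All members were counted. Where at most 12 passed, all were to be named, otherwise the 6 highest rises and 6 lowest falls; where none passed, the 2 with the smallest p; X-linked members and Ctss were added for KO against WT. Other members are described for their roles, and their values had been seen. From other lysosomal lists, genes with the smallest p were named. Members and lists were chosen with earlier results of these data known. Alternatives were the mean of all probe sets, quantile normalization, median centring, an offset of 32, a filter on dim genes, only the compared arrays, an intensity trend, a replicate block and each array left out.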

Additional observations from a re-analysis of the deposited data

Results flagged for a closer look

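Probe sets of 2 members that were not used for the gene values were higher in replated cells than in each sorted KO population. These data lie outside the measurement reported above, and the brightest probe set of the same gene passed no test. For Lamp2, the dimmest of 4 probe sets was at a mean level of 471 in KO LSK, 615 in KO CMP, 939 in KO GMP and 1918 in replated cells. Its log2 differences were 2.03 against LSK, 1.64 against CMP and 1.03 against GMP (SE 0.229 each; limma adjusted p = 0.000275, 0.00101 and 0.012). For Ppt1, 1 of 5 probe sets was at 161 in KO LSK, 252 in KO CMP, 249 in KO GMP and 574 in replated cells. Its differences were 1.83, 1.19 and 1.21 (SE 0.29 each; limma adjusted p = 0.00202, 0.0198 and 0.0174). On both replated arrays these probe sets read above every sorted KO array.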

How the results depend on the processing

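No result changed direction past its threshold under the alternatives run. The number of members called moved by more than 1.5 times in these cases: with an offset of 32, 1 passed from CMP to GMP in WT (0 otherwise); with only the compared arrays, 0 passed from LSK to GMP in WT, 2 from LSK to GMP in KO and 0 from CMP to GMP in KO; and with any probe set of a member counted, an alternative chosen after seeing the data, 8 passed from LSK to GMP in KO. Fits of only the compared arrays have fewer samples. With single arrays left out, calls ranged from 0 to 1 for KO against WT in LSK, 0 to 3 for LSK to CMP in WT, 0 to 1 for CMP to GMP in WT, 1 to 7 for LSK to GMP in WT, 0 to 2 for LSK to CMP in KO, 0 to 2 for CMP to GMP in KO and 2 to 6 for LSK to GMP in KO. Against replated cells they ranged from 14 to 22 for KO LSK, 11 to 19 for KO CMP and 9 to 16 for KO GMP. The median GMP minus LSK difference of the members in WT moved from 0.45 to 0.18 without WT LSK replicate 1. The cause was not tested.

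With the replicate block, 7 members passed from LSK to GMP in WT, 4 in KO, 1 from CMP to GMP in KO, and 21, 18 and 16 in replated cells against LSK, CMP and GMP. Same-numbered arrays showed little shared deviation: the correlation over 21 pairs of groups ran from -0.10 to 0.10, with a median of 0.03 and 1 pair over 0.1. With 2 arrays a group this cannot tell whether same-numbered samples came from the same mice, which is not stated. With 2 arrays a group, small differences could not be resolved, and members near the floor are bounds.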

Other observations

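Other lysosomal genes also differed between GMP and LSK. Of 18 other hydrolases, 2 were higher and 4 lower in WT GMP than in WT LSK, and 4 were higher and 1 lower in KO. Of all genes 3.22% were called higher and 7.09% in either direction in WT, and 3.42% and 7.18% in KO. Galns, the sulfatase of keratan and chondroitin sulfate breakdown, was at 77.8 and 105 in WT LSK and at 307 and 324 in WT GMP (1.80 ± 0.25, limma adjusted p = 0.00288), and rose in KO by 1.47 ± 0.25 (adjusted p = 0.00906). Ctsw, a cathepsin of cytotoxic lymphocytes, went the other way, from 460.4 and 407 in WT LSK to 22.7 and 19.5 in WT GMP. Nagpa, which uncovers the mannose 6-phosphate tag, rose by 1.58 ± 0.22 in WT (adjusted p = 0.00297) and by 1.67 ± 0.22 in KO (adjusted p = 0.00303). Cst7, which encodes the cathepsin inhibitor cystatin F, was at 384 and 314 in KO LSK and at 3212 and 3372 in KO GMP (3.24 ± 0.27, adjusted p = 0.000298), and it rose in WT by 2.24 ± 0.27 (adjusted p = 0.0014).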
